A study of Homo sapiens with 12 samples.

Results

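The dual-specificity phosphatase (DUSP) genes DUSP1, DUSP2, DUSP4, DUSP5, DUSP6, DUSP7, DUSP8, DUSP10, DUSP14 and DUSP16 were chosen by symbol from the gene counts. They are 10 of 56634 symbols in the table, and all 10 passed the filter on low counts that left 13084 genes for testing. RNA was sequenced from HCT116, an established human colorectal carcinoma cell line, from 3 biological replicates in each of 4 groups. In the control group 0.1% DMSO, the solvent, was present for 3 hours. The Senexin B group received 1 µM Senexin B, an inhibitor of the Mediator kinases CDK8 and CDK19, for 3 hours. In the TNF group 1 hour of 0.1% DMSO preceded 2 hours of TNF, an inflammatory cytokine, at 10 ng/mL. In the fourth group 1 hour of 1 µM Senexin B preceded the same TNF exposure. All groups were of the same unmodified line, so the values describe RNA of 1 cell line shortly after treatment.

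MAP kinases are switched on when an upstream kinase phosphorylates a threonine and a tyrosine in their activation loop. DUSP proteins remove both phosphates and so act as brakes on the kinases ERK, JNK and p38. Several DUSP genes are themselves transcribed in response to MAP kinase activity, which makes them part of a negative feedback loop. They are usually sorted by where the protein sits and what it acts on. DUSP1, DUSP2, DUSP4 and DUSP5 are nuclear and inducible, and DUSP5 acts on ERK. DUSP6 and DUSP7 are cytoplasmic and prefer ERK. DUSP8, DUSP10 and DUSP16 prefer JNK and p38, and DUSP14 is a small phosphatase without the kinase-docking domain of the others.

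Totals ran from 5835226 counts in TNF replicate 1 to 9281176 in Senexin B replicate 3. Control replicate 1 and TNF replicate 1 stood apart from their group mates, with chi-square values per degree of freedom of 2.58 to 2.92 in pairs that held them. Pairs without them gave 1.23 to 1.78. Leaving out both changed 2 DUSP calls, those of DUSP10 with TNF and DUSP6 with Senexin B, described with those genes. All 10 epithelial markers passed the filter. Of 9 fibroblast markers 1 passed, 4 were at 0 in every library, and the 9 summed to 7.46 to 11.2 CPM. Of 10 blood cell markers none passed, 4 were at 0 in every library, and they summed to 0.115 to 0.943 CPM.

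The windows of 3 promoters are shown first, DUSP8 and DUSP1 for the motif matches they hold and DUSP6 as a gene that fell with TNF. DUSP10 and DUSP16, which rose with TNF as DUSP8 and DUSP1 did, held no match. The windows come from RefSeq (build GRCh38.p14) and run from 250 bases before to 50 after a transcription start. Those of 8 of the 10 genes were searched. No window was found for DUSP5, which rose with TNF, and DUSP4, which also fell with TNF, was left out of the search. Whether a match goes with a rise or a fall under TNF was not tested. The sequences are written 5′ to 3′ on the strand of the gene, which is the minus strand for all 3, with matches to the motifs searched in capitals.
DUSP8, chr11:1572222-1572521: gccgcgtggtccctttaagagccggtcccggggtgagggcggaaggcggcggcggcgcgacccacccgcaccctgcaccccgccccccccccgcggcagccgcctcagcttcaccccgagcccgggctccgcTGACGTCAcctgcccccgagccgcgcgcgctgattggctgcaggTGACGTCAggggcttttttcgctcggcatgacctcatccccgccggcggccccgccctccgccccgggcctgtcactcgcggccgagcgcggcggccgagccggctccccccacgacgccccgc
DUSP1, chr5:172771146-172771445: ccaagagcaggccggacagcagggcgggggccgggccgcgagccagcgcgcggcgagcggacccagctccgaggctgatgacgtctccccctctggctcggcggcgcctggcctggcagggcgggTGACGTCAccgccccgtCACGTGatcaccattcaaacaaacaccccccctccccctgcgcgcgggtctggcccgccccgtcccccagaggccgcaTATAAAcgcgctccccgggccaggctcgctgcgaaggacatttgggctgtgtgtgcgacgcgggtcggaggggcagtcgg
DUSP6, chr12:89352452-89352751: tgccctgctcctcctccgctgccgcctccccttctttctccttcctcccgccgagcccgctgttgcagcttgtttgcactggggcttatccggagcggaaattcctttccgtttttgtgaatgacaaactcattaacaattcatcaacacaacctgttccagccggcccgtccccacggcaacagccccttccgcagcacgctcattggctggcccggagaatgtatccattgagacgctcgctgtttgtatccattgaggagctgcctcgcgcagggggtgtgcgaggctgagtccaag
The capitals mark the cAMP response element (CRE, TGACGTCA), bound by CREB and ATF factors, whose letters read the same on both strands. In DUSP1 they also mark an E-box (CACGTG) and a TATA box (TATAAA).

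DUSP8 held the CRE at 2 places, with first bases 118 and 74 before the start, and DUSP1 held it once, 125 before. In DUSP1 the E-box began 108 and the TATA box 30 bases before the start. The E-box also stood in the DUSP2 window, 113 bases before its start. Searches for these motifs, for AP-1 sites (TGANTCA), ETS sites (CCGGAAG) and, by name, kappaB and CArG sites found none in the windows of DUSP6, DUSP7, DUSP10, DUSP14 and DUSP16. Both strands were searched except for TATAAA, read on the given strand, and no match overlapped another. Of all 35116 windows of this length, 1.85% held the CRE, 7.26% the E-box, 7.33% TATAAA, 7.71% the AP-1 letters, 10.3% the ETS letters, 5.91% a kappaB and 1.29% a CArG match. A match describes letters in the window and not a bound site. The starts are those of RefSeq, which can differ from GENCODE 29, the source of the gene positions below. The DUSP8 and DUSP16 windows lay wholly upstream of the GENCODE gene. The DUSP6 window lay wholly inside the GENCODE gene, so bases upstream of its GENCODE start were not searched.

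Levels were first set side by side within cells, as counts per 1000000 counts and kilobase of merged exon (CPM per kb). Exon lengths came from GENCODE 29, and a comparison between genes depends on the length chosen. In control cells DUSP5 was highest at 63.6 ± 2.94 CPM per kb (SD, n = 3). DUSP6 followed at 30.4 and DUSP4 at 25.0 CPM per kb, so 2 ERK phosphatases and DUSP4 led the order. DUSP14 (16.2), DUSP7 (10.3), DUSP2 (9.38) and DUSP1 (4.99 CPM per kb) came next. The genes that prefer JNK and p38 were lowest, with DUSP16 at 3.19, DUSP8 at 1.72 and DUSP10 at 0.485 CPM per kb. No neighbours in this order overlapped between control libraries. With TNF, DUSP2 and DUSP1 overlapped, as did DUSP16 and DUSP8. With TNF plus Senexin B the overlapping neighbours were DUSP4 and DUSP6, DUSP7 and DUSP2, and DUSP16 and DUSP8, and with Senexin B alone they were DUSP2 and DUSP7.

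**Figure D1:**
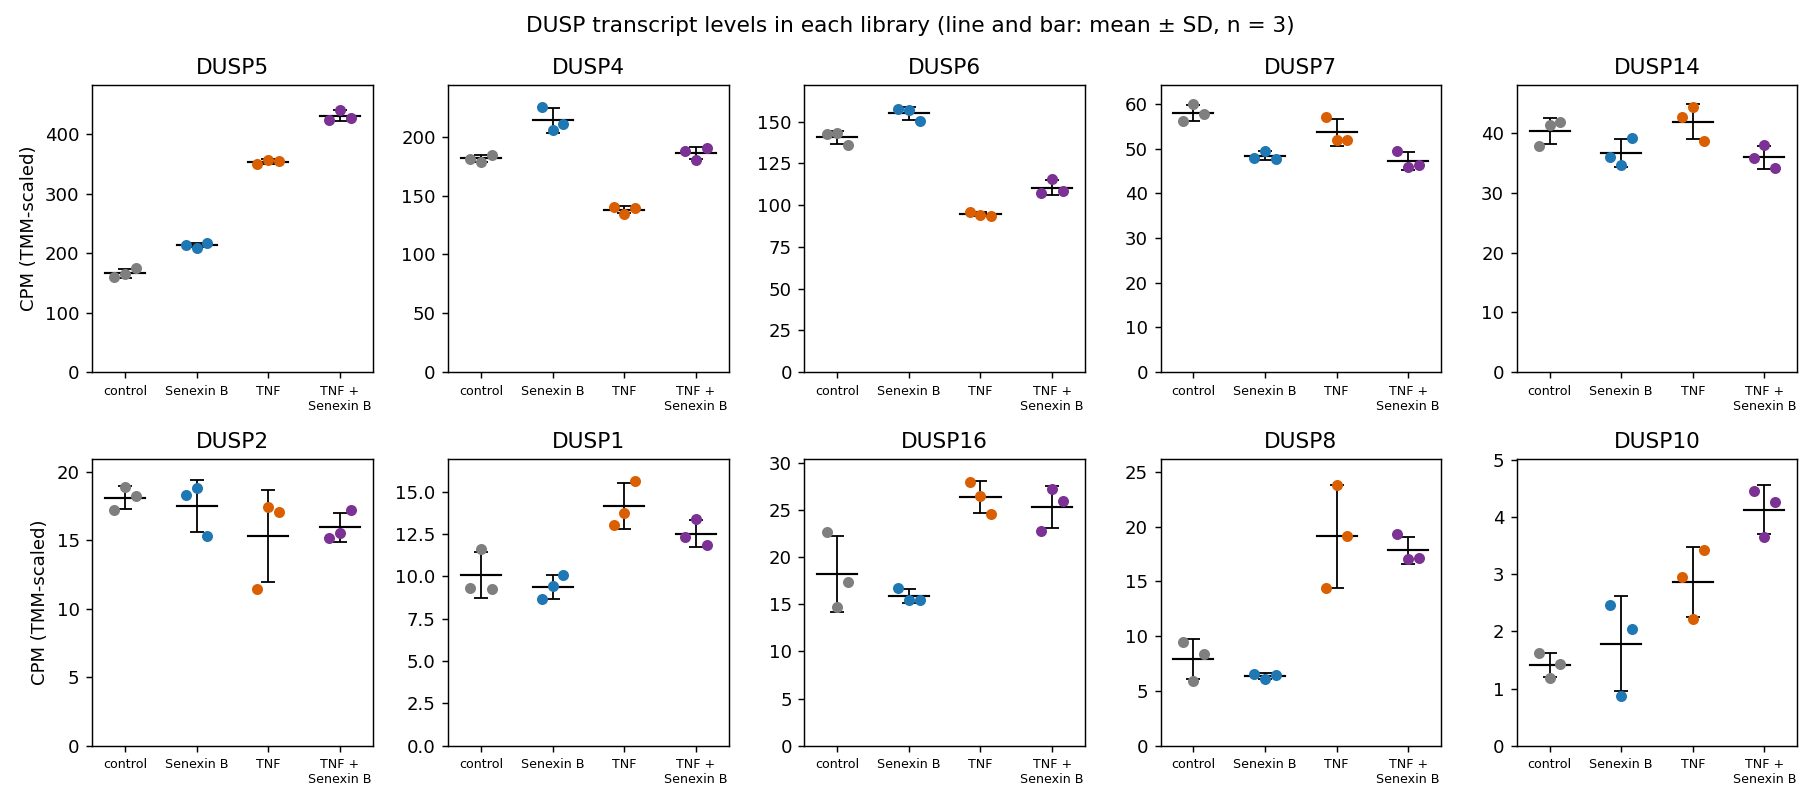
Level of each DUSP gene in each library, as CPM scaled by TMM (y axis from 0, a range of its own for each gene) in the 4 groups (x axis), with points for libraries and a line and bar for mean ± SD (n = 3). DUSP5 rises in steps from 159 to 174 CPM in control to 424 to 441 CPM with both agents, while DUSP4 and DUSP6 are lowest with TNF alone.

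The comparison of TNF with control asked how the cytokine alone changed transcript levels. TNF moved the DUSP genes in both directions: DUSP5, DUSP8, DUSP10, DUSP16 and DUSP1 rose, and DUSP4 and DUSP6 fell. DUSP8, DUSP5 and DUSP10 were 2.48-fold, 2.13-fold and 2.02-fold higher. DUSP6 stood at 0.672 and DUSP4 at 0.759 of control. Counted by the groups given above, DUSP8, DUSP10 and DUSP16, which prefer JNK and p38, all rose, though the call of DUSP10 did not hold under every alternative. The 4 nuclear inducible genes, of which DUSP1 and DUSP4 also act on JNK, split into 2 higher, 1 lower and 1 that did not pass the test. Of the 2 cytoplasmic ERK phosphatases 1 fell. The 5 of 10 higher and 2 of 10 lower stood against 5.81% of all 13084 tested genes higher and 4.20% lower in edgeR's quasi-likelihood test, at a Benjamini-Hochberg adjusted p under 0.05. The median log2 fold change was 0.27 over the 10 genes and -0.01 over all tested genes. Levels are of bulk RNA, in which a change in all cells and a change in some of them cannot be told apart.

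DUSP5, the nuclear phosphatase of ERK (GRCh38 chr10:110497838-110511544, plus strand), was at 159, 165 and 174 CPM in the 3 control libraries. It was at 349, 357 and 355 CPM with TNF. The groups lay far apart, with the lowest TNF library above the highest control library. For this and all later statements of overlap, the share of all tested genes without overlap was not counted. The rise was 1.09 ± 0.04 (SE) on the log2 scale, with an edgeR adjusted p of 9.67e-30. DUSP1, the classical immediate-early phosphatase of p38 and JNK (chr5:172768090-172771195, minus strand), was at 9.30, 11.6 and 9.28 CPM in control and 13.0, 13.7 and 15.6 CPM with TNF. Its libraries did not overlap either, but the rise was small, at 0.50 ± 0.13 on the log2 scale (edgeR adjusted p = 0.00604). The call for DUSP1 was lost in DESeq2 (adjusted p = 0.0618) and in edgeR without control replicate 3 (0.0588) or TNF replicate 3 (0.0660).

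DUSP4, a nuclear phosphatase of ERK and JNK (chr8:29333064-29350668, minus strand), was at 181, 179 and 185 CPM in control. With TNF its libraries were at 140, 135 and 139 CPM, all below every control library. The log2 fold change was -0.40 ± 0.05 (edgeR adjusted p = 1.49e-09). DUSP2, the fourth nuclear gene and best known from activated lymphocytes (chr2:96143166-96145440, minus strand), was at 17.2 to 18.9 CPM in control. With TNF it was at 17.4 and 17.1 CPM in 2 libraries and at 11.4 CPM in TNF replicate 1, so that the groups overlapped. Its log2 fold change of -0.21 ± 0.12 did not pass (edgeR adjusted p = 0.286), and the 95% interval ran from -0.45 to 0.03. Without the 2 libraries that stood apart it was -0.10.

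DUSP6, the cytoplasmic ERK phosphatase often read as a gauge of ERK signalling (chr12:89347232-89353271, minus strand), was at 143, 143 and 136 CPM in control. It was at 95.7, 94.2 and 93.7 CPM with TNF. All 3 TNF libraries lay well under the lowest control library and close to each other. On the log2 scale the change was -0.57 ± 0.05 (edgeR adjusted p = 1.13e-13). An antisense gene overlaps 1875 bases of its exons, and the library kit does not mark strand, so reads of the 2 cannot be told apart. DUSP7, its close relative (chr3:52048919-52056550, minus strand), was at 56.3 to 59.9 CPM in control and 51.9 to 57.0 CPM with TNF. Those ranges overlapped, and the log2 fold change of -0.12 ± 0.07 did not pass (edgeR adjusted p = 0.276).

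DUSP8 (chr11:1554044-1571920, minus strand), which acts on JNK and p38, was at 9.43, 5.93 and 8.40 CPM in control. With TNF it was at 14.4, 23.8 and 19.2 CPM, with no overlap and a wide spread. The log2 fold change was 1.31 ± 0.15 (edgeR adjusted p = 2.90e-09), and it was 1.57 without control replicate 1 and TNF replicate 1, the libraries that stood apart. DUSP16 (chr12:12474210-12562383, minus strand), which prefers JNK, was at 22.6, 14.7 and 17.3 CPM in control and 27.9, 26.5 and 24.6 CPM with TNF. The highest control library was replicate 1 again, and still lay under all TNF libraries. The log2 fold change was 0.53 ± 0.11 (edgeR adjusted p = 0.000272), or 0.67 without those libraries. The pseudogenes DUSP5P1 and DUSP8P5, whose reads could be mixed up with those of DUSP5 and DUSP8, had at most 4 and 8 counts in any library.

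DUSP10 (chr1:221701424-221742176, minus strand), a phosphatase of JNK and p38, was the least abundant of the 10 genes, with 10 to 13 counts per control library. Its level was 1.62, 1.19 and 1.44 CPM in control and 2.95, 2.21 and 3.42 CPM with TNF, with no overlap. This gave a log2 fold change of 1.01 ± 0.32, close to the threshold (edgeR adjusted p = 0.0285). The call was lost in DESeq2 (adjusted p = 0.125) and in edgeR without TNF replicate 1 (0.0621), TNF replicate 3 (0.158), control replicate 2 (0.105) or control replicate 3 (0.0820), and without both libraries that stood apart (0.0615). DUSP14 (chr17:37489831-37513501, plus strand) was at 37.9 to 41.9 CPM in control and 38.7 to 44.4 CPM with TNF. Its groups overlapped, with a log2 fold change of 0.05 and a 95% interval from -0.11 to 0.20 (edgeR adjusted p = 0.770).

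**Figure D2:**
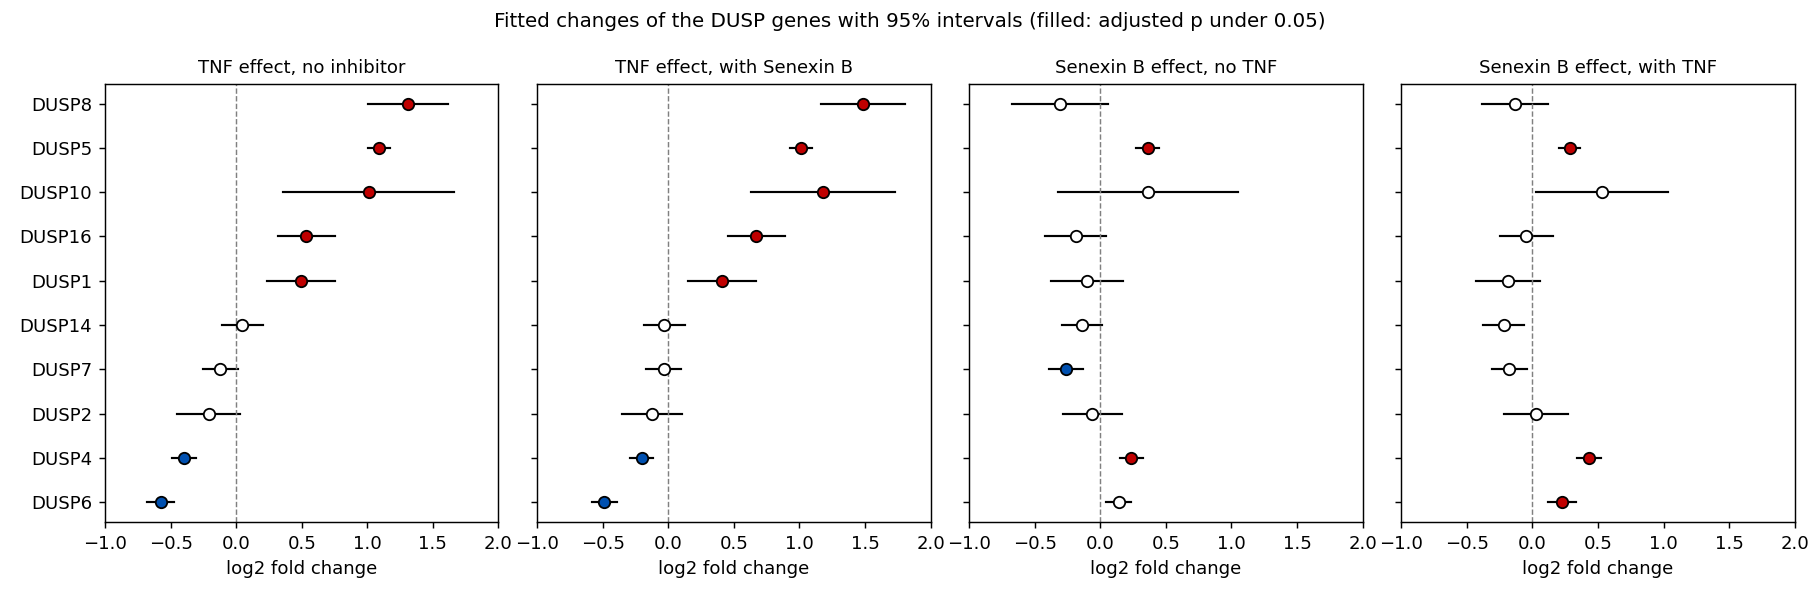
Fitted log2 fold change (x axis) of each DUSP gene (y axis) with its 95% interval, for TNF without and with Senexin B and for Senexin B without and with TNF, with red and blue points for genes called higher and lower at an adjusted p under 0.05 and open points for the rest. The TNF panels hold 5 red and 2 blue points each, and the Senexin B panels hold 2 red and 1 blue without TNF and 3 red with it.

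The comparison of Senexin B with control asked what inhibiting the Mediator kinases did without the cytokine. DUSP5 and DUSP4 rose and DUSP7 fell, each by less than 1.3-fold. None of DUSP8, DUSP10 and DUSP16 passed the test. The 2 of 10 higher and 1 of 10 lower stood against 1.53% of tested genes higher and 1.51% lower, and the median log2 fold change was -0.08 over the 10 genes. The control libraries are shared with the TNF comparison, so the values are set side by side and no likeness between the comparisons is drawn.

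DUSP5 was at 214, 209 and 217 CPM with Senexin B, all above the highest control library at 174 CPM. Its log2 fold change was 0.36 ± 0.04 (edgeR adjusted p = 9.84e-09), where TNF had given 1.09. DUSP4 was at 226, 205 and 211 CPM, also above every control library. Its log2 fold change was 0.24 ± 0.04 (edgeR adjusted p = 0.000270), opposite in sign to the -0.40 with TNF. DUSP6 was at 158, 157 and 150 CPM and did not overlap with control, yet its log2 fold change of 0.14 ± 0.05 did not pass (edgeR adjusted p = 0.0995). It passed without TNF replicate 1 (0.0418), without both libraries that stood apart (0.0442) and with offsets corrected for GC content (0.0341).

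DUSP7 was at 48.0, 49.6 and 47.7 CPM with Senexin B against 56.3, 59.9 and 57.7 CPM in control. The log2 fold change was -0.26 ± 0.07 (edgeR adjusted p = 0.0109). The call was lost in DESeq2 (adjusted p = 0.0512) and in edgeR without Senexin B replicate 1 (0.0520), Senexin B replicate 3 (0.0679) or control replicate 2 (0.0736). The other genes overlapped with control. DUSP8 was at 6.08 to 6.56 CPM, DUSP16 at 15.4 to 16.8 CPM, DUSP1 at 8.67 to 10.1 CPM, DUSP2 at 15.3 to 18.8 CPM and DUSP14 at 34.7 to 39.3 CPM. DUSP10 spread from 0.868 to 2.46 CPM on 7 to 21 counts, so that its log2 fold change of 0.36 had a 95% interval from -0.33 to 1.05.

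With TNF present, the comparison of TNF plus Senexin B with TNF asked what the inhibitor changed in stimulated cells. DUSP4, DUSP5 and DUSP6, the most abundant genes per length, rose by 1.35-fold, 1.22-fold and 1.17-fold. None of the 10 genes was called lower in edgeR. The 3 of 10 higher in edgeR stood against 2.90% of all tested genes higher and 2.55% lower. DESeq2 called 3 higher and 0 lower of the 10, and 243 higher and 194 lower among all genes. At an unadjusted p under 0.05 the counts in edgeR were 4 higher and 2 lower. Here and below, no share of all tested genes was counted at the unadjusted threshold. The median log2 fold change of the 10 genes was -0.01. The TNF libraries serve here as the reference and in the TNF comparison as the treated group, so that a chance high or low value in them enters both with opposite sign.

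DUSP4 was at 188, 180 and 190 CPM with both agents, above all 3 TNF libraries, and its range took in control libraries, which were at 179 to 185 CPM. The log2 fold change against TNF was 0.43 ± 0.05 (edgeR adjusted p = 4.50e-10). DUSP5 reached 424, 441 and 427 CPM, the highest in the experiment (log2 fold change 0.28 ± 0.04, edgeR adjusted p = 4.16e-07). DUSP6 was at 107, 116 and 109 CPM, above every TNF library at up to 95.7 CPM and below every control library. Its log2 fold change was 0.23 ± 0.05 (edgeR adjusted p = 0.00360), a call that did not hold without TNF plus Senexin B replicate 2 (0.0554).

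DUSP7, DUSP14 and DUSP10 did not pass, although their libraries did not overlap with TNF. How many of all tested genes showed no overlap was not counted. DUSP7 was at 46.0 to 49.5 CPM against 51.9 to 57.0 CPM with TNF (log2 fold change -0.18 ± 0.07, edgeR adjusted p = 0.124), and it passed with offsets corrected for GC content (-0.24, 0.0161). DUSP14 was at 34.1 to 38.0 CPM against 38.7 to 44.4 CPM (-0.22 ± 0.08, edgeR adjusted p = 0.0906), and it passed without TNF replicate 3 (0.0469). DUSP10 was at 4.46, 3.64 and 4.27 CPM, on 31 to 37 counts, with a log2 fold change of 0.53 ± 0.25 (edgeR adjusted p = 0.223). The levels of DUSP8 (17.0 to 19.3 CPM), DUSP16 (22.8 to 27.2 CPM) and DUSP2 (15.2 to 17.2 CPM) overlapped with TNF, and so did DUSP1 at 11.9 to 13.4 CPM. Their 95% intervals ran from -0.38 to 0.12 for DUSP8, from -0.25 to 0.15 for DUSP16, from -0.22 to 0.27 for DUSP2 and from -0.43 to 0.06 for DUSP1.

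Where both groups had received Senexin B, the comparison of TNF plus Senexin B with Senexin B gave 5 DUSP genes higher and 2 lower. They were DUSP8 at 2.80-fold, DUSP10 at 2.27-fold, DUSP5 at 2.02-fold, DUSP16 at 1.59-fold and DUSP1 at 1.33-fold of Senexin B alone. DUSP6 stood at 0.713 and DUSP4 at 0.869. The background was 4.27% of tested genes higher and 1.68% lower. The log2 fold changes were 1.48 ± 0.16 for DUSP8, 1.18 ± 0.27 for DUSP10, 1.01 ± 0.04 for DUSP5 and 0.67 ± 0.11 for DUSP16. Those of DUSP6 and DUSP4 were -0.49 ± 0.05 and -0.20 ± 0.04, and the largest edgeR adjusted p of these 6 was 0.00128. For DUSP1 it was 0.41 ± 0.13 (edgeR adjusted p = 0.0410). That call was lost in DESeq2 (adjusted p = 0.304), with no filter on low counts (0.0743) and without any 1 of the 6 libraries compared (0.0558 to 0.217). DUSP2, DUSP7 and DUSP14 did not pass, at -0.12, -0.03 and -0.03.

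Whether Senexin B changed the TNF effect was tested as an interaction. None of the 10 DUSP genes was called by edgeR, against 0.0459% of tested genes, which is 6 of 13084, and DESeq2 called none of the 10 either. At an unadjusted p under 0.05 there was 1, DUSP4, whose TNF effect was -0.40 without and -0.20 with the inhibitor. The difference was 0.20 ± 0.06 on the log2 scale, with a 95% interval from 0.07 to 0.32 (edgeR adjusted p = 0.728). For DUSP5 the difference was -0.08, with an interval from -0.19 to 0.04, and for DUSP6 it was 0.09, from -0.06 to 0.23. The intervals were wide for DUSP8 (-0.27 to 0.62) and DUSP10 (-0.68 to 1.02).

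The make-up of the DUSP transcripts shifted with treatment on the CPM per kb scale. DUSP5 made up 37.6 to 39.7% of the summed level of the 10 genes in control, 43.3 to 44.6% with Senexin B, 59.7 to 60.1% with TNF and 62.9 to 63.4% with both. The 4 ranges did not overlap. DUSP6 made up 17.5 to 19.0% in control and 8.89 to 9.31% with TNF. The level of DUSP5, which acts on ERK in the nucleus, divided by that of DUSP6, which acts on it in the cytoplasm, was 1.98 to 2.27 in control. It was 2.37 to 2.56 with Senexin B, 6.46 to 6.72 with TNF and 6.76 to 7.01 with both, again with no overlap between groups. The ratio of DUSP5 to DUSP4 was 2.44 to 2.62 in control, 2.63 to 2.86 with Senexin B, 6.92 to 7.37 with TNF and 6.24 to 6.80 with both, so it was lower with both agents than with TNF alone. The sum itself rose from 162 to 168 CPM per kb in control to 184 to 189 with Senexin B, 222 to 229 with TNF and 258 to 266 with both. These are values of transcripts, and protein was not measured.

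**Figure D3:**
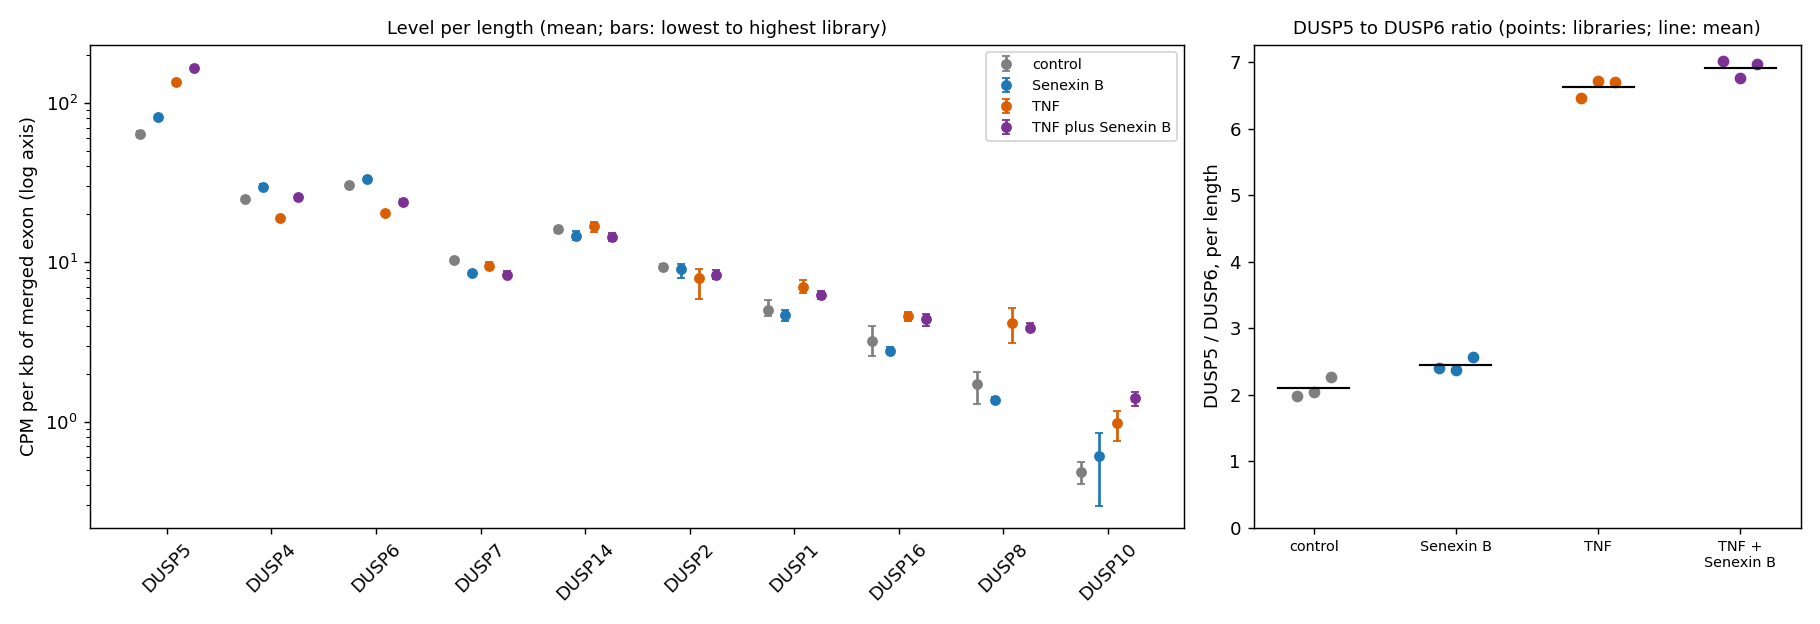
Left, level of each DUSP gene as CPM per kb of merged exon (log axis) in the 4 groups, with points for means and bars from the lowest to the highest library. Right, the ratio of DUSP5 to DUSP6 in each library (y axis from 0) with a line for the group mean. DUSP5 is highest in every group, and the ratio lies at 1.98 to 2.56 in the 6 libraries without TNF and at 6.46 to 7.01 in the 6 with it.

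The rest of the pathway was read from lists of MAP kinase genes. The other DUSP and related phosphatase genes (11 tested of 16 in the table) gave no call with TNF or with Senexin B in edgeR, and 2 and 0 at an unadjusted p under 0.05. DESeq2 called none in either. DUSP3, the most abundant of them at a mean of 66.2 CPM, fell with both agents against TNF (-0.21 ± 0.06, edgeR adjusted p = 0.0233), a call lost in DESeq2 (0.0765). The lists of other phosphatases, RAS and RAF genes, kinases and feedback inhibitors held 79 tested genes. Of these 79, 7 rose and 7 fell with TNF, where 5.81% of all tested genes rose and 4.20% fell. With Senexin B 2 rose and 4 fell (1.53% and 1.51% of all tested genes). With both against TNF 1 rose and 6 fell (2.90% and 2.55%), and with both against Senexin B 8 rose and 1 fell (4.27% and 1.68%).

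With TNF the kinase of this set with the largest rise was MAP3K8, also known as TPL2, which activates the ERK cascade downstream of the TNF receptor. It went from 1.89 ± 0.701 to 6.69 ± 0.424 CPM (log2 fold change 1.86 ± 0.26, edgeR adjusted p = 2.64e-08). MAP2K3, an activator of p38, rose by 0.43, NRAS by 0.35, MAP3K2 by 0.33 and MAPK6 by 0.32, all on the log2 scale. MAPK7, which encodes ERK5, fell by 0.53, MAP3K9 by 0.29, MAP3K3 by 0.28, and the downstream kinases MKNK2 and RPS6KA4 by 0.27 and 0.22. DESeq2 did not call MAP3K3 (adjusted p = 0.0530). Abundant genes of these lists, GRB2 at 322, TAOK1 at 166 and MAPKAPK3 at 144 CPM on average over the 12 libraries, were not called with TNF.

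With Senexin B alone SOS1 fell by 0.24, MAP3K3 by 0.28 and TAOK1 by 0.23 on the log2 scale, and RPS6KA5 rose by 0.33. With both agents against TNF MAPK8 (JNK1) fell by 0.26, MAP3K2 by 0.24, TAOK1 by 0.21 and MAPK6 by 0.17. With both agents against Senexin B MAP3K8 rose by 2.01, MAP3K1 by 0.40, MAP2K3 by 0.40, NRAS by 0.26, MAPK6 by 0.23 and MAP3K2 by 0.21, and MKNK2 fell by 0.22. DESeq2 did not call MAP3K3 (adjusted p = 0.104) and RPS6KA5 (0.226) with Senexin B or MAP3K2 (0.0548) with both against TNF. Nor did it call MAP3K2 (0.227) and MKNK2 (0.137) with both against Senexin B. MAP3K8, NRAS, MAP2K3, MAPK6 and MAP3K2 were thus called higher by edgeR for TNF both without and with the inhibitor.

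In the list named other ERK feedback inhibitors, 2 of 13 tested genes rose and 2 fell with TNF. Of all tested genes 5.81% rose and 4.20% fell. The 2 that rose were ERRFI1 and IER3, and IER3 is on the list although it is no inhibitor of ERK. ERRFI1, which inhibits the EGF receptor, rose from 623 ± 15.8 CPM in control to 865 ± 24.1 with Senexin B, 1030 ± 14.1 with TNF and 1369 ± 22.7 with both. The order of these group means is that of DUSP5. The log2 fold changes were 0.47 for Senexin B and 0.72 for TNF, each against control, and 0.41 for both against TNF (largest edgeR adjusted p 3.04e-14). TNF was not tested against Senexin B. IER3, which is known to prolong ERK activity rather than inhibit it, rose with TNF (0.64) and fell with Senexin B both without TNF (-0.33) and with it (-0.32). The Sprouty genes SPRY4 and SPRY2, inhibitors of the pathway upstream of ERK, fell with TNF by 0.25 and 0.57 on the log2 scale, SPRY2 being named after its values were seen and not called by DESeq2 (adjusted p = 0.134).

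Of 23 tested ERK-responsive genes, a list that includes SPRY2 and SPRY4, 8 rose and 4 fell with TNF, against the 5.81% and 4.20% of all tested genes. Those with the smallest adjusted p were JUN, which rose by 1.32, PLAUR, the urokinase receptor, by 1.23 and FOSL1 by 0.75 on the log2 scale. The 4 that fell were SPRY2, SPRY4, FOS (-0.71) and KCNN4 (-0.38), the last 2 being named after their values were seen. DESeq2 did not call FOS (adjusted p = 0.121). CCND1, the most abundant at a mean of 874 CPM, was not called in any comparison. With Senexin B MYC rose and EGR1, JUN and FOS fell. With both against TNF MYC, EPHA2 and KCNN4 rose and EGR1, JUN and IER2 fell. DESeq2 gave no adjusted p for FOS with Senexin B and did not call KCNN4 in the latter comparison (0.130). EGR1, an immediate-early factor, was at 96.8 ± 9.86 CPM in control, 35.6 ± 1.32 with Senexin B, 86.0 ± 10.1 with TNF and 25.4 ± 4.08 with both. JUN fell by 1.33 with Senexin B and by 1.35 with both against TNF, whereas MYC rose by 0.45 and 0.34 (largest edgeR adjusted p of these EGR1, JUN and MYC changes 7.10e-10). With both against Senexin B 9 rose and only EGR1 of this list fell, by 0.49 (4.27% and 1.68% of all tested genes). Those with the smallest adjusted p were ZFP36 at 1.43, PLAUR at 1.26 and JUN at 1.30. EPHA2, IER2 and this change of EGR1 were likewise named after their values were seen.

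**Figure D4:**
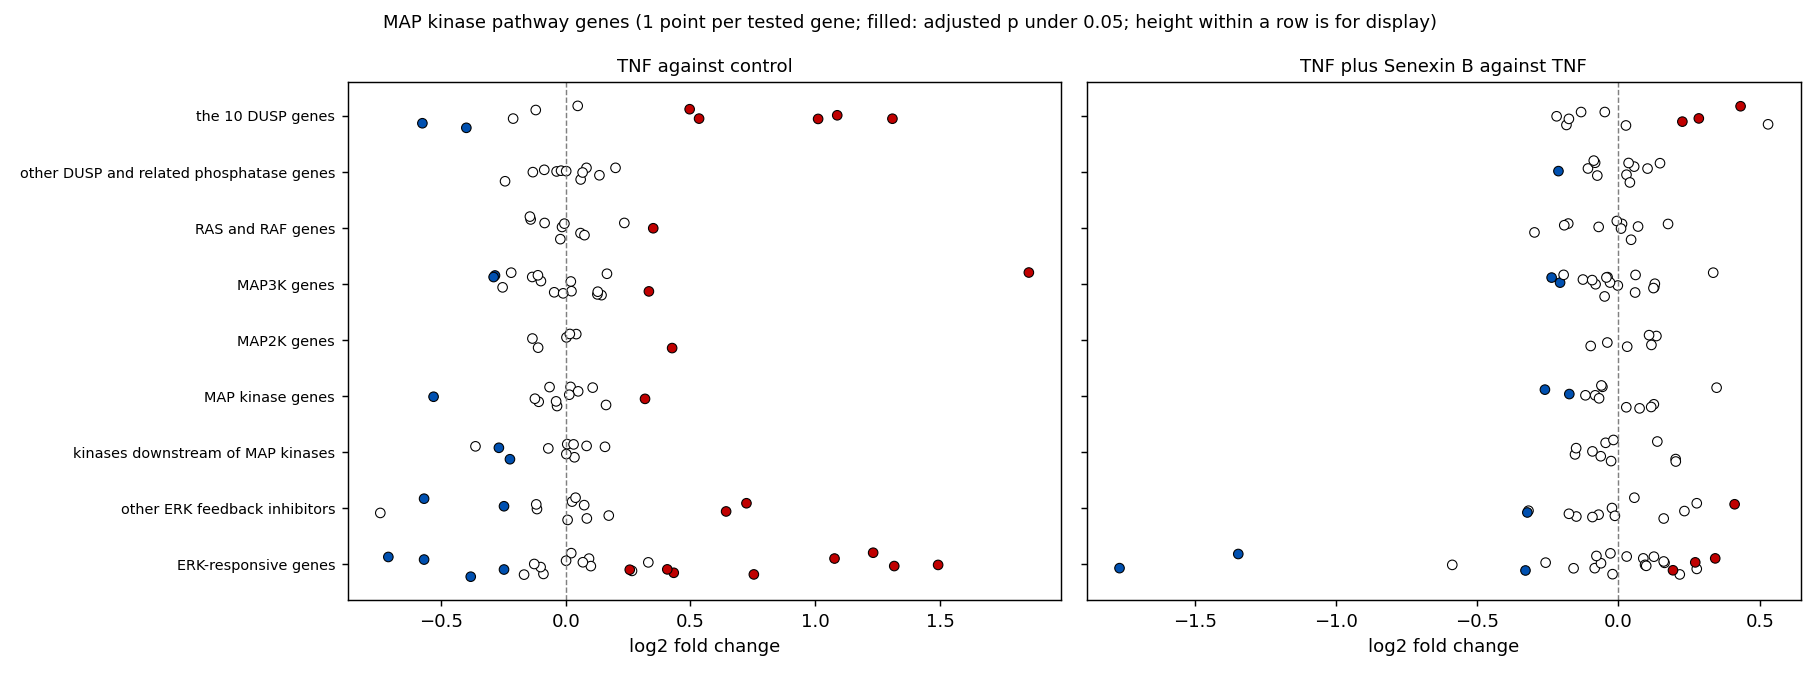
Log2 fold change (x axis) of each tested gene of the MAP kinase lists (rows) for TNF against control (left) and for both agents against TNF (right), with red and blue points for genes called higher and lower and open points for the rest. The DUSP row holds 5 red and 2 blue points for TNF, and the row of other DUSP and related phosphatases holds none.

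Genes whose levels followed those of a DUSP gene most closely were looked up by the root mean square difference of centred log2(CPM + 1) over the 12 libraries, for the 3 DUSP genes with the widest range of group means. Closest to DUSP8 were IKBKE (0.15), ABTB2 (0.18) and ZFP36 (0.18). Closest to DUSP5 were SMAD3 and ITGB8 (both 0.09) and SAMD4A (0.13). SMAD3 averaged 168 CPM in control, 209 with Senexin B, 333 with TNF and 374 with both, and ITGB8 averaged 15.0, 19.3, 34.6 and 44.8 CPM in the same order. Closest to DUSP10 were CFLAR (0.21), CYR61 (0.21) and TANK (0.22), at larger distances and on the low counts of DUSP10. The 1 added to CPM shrinks the changes of a gene this low, so likeness on this scale is not likeness in fold change. DUSP10 averaged 1.41 CPM in control and 4.12 with both agents, and TANK averaged 58.4 and 97.1. The distances describe these libraries and carry no test.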

How the data were processed

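RNA of HCT116 cells (4 groups, 3 biological replicates each) was made into libraries with a TruSeq RNA kit, per the labels' protocols. That kit keeps no strand information. The authors deposited raw counts of reads per gene symbol, not normalized. The submitters' processing notes name STAR 2.4, SAMtools 1.2, featureCounts from Subread 1.4.6 and GRCh38. The annotation release, the strand setting and the handling of multiply mapped reads are not given in the sources used here.

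The counts were tested by robust quasi-likelihood F-tests in edgeR 4.0.16 under R 4.3.3, with TMM normalization and filterByExpr. A single fit covered all 12 libraries, which share an estimate of the spread. Calls are at a Benjamini-Hochberg adjusted p below 0.05 over all 13084 tested genes. Standard errors are Wald errors scaled by the quasi-dispersion. CPM are counts per 1000000 counts of the TMM-scaled library. The p-values set a difference between groups against the spread between replicates, which was estimated with information shared across genes. The fit was also run on counts simulated from its own estimates, which cannot show that the model holds for these data. Gene positions and exon lengths came from GENCODE 29.

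Alternatives were no filter, size factors of the DESeq2 kind, DESeq2 1.42.0, a replicate block, each library left out, both libraries that stood apart left out, a fit of the compared groups alone, and offsets corrected for GC content, chosen after seeing the data. All 10 members were named in every comparison. From each list were named up to 3 called genes with the smallest adjusted p per comparison and the gene with the highest mean CPM, of which 1 is not reported here. The members and lists were chosen with earlier results of these data known. Of 116 list entries 114 were found by symbol.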

Additional observations from a re-analysis of the deposited data

How the results depend on the processing

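Depth limits the low genes most: DUSP10 rested on 7 to 37 counts per library, and its intervals were the widest. Of 940 recomputed DUSP values, 913 kept their side of the threshold, 22 lost a call and 5 gained one. No value called in the main or the alternative fit changed its sign. Some uncalled values near 0 did, such as the log2 fold change of DUSP14 with TNF. It was 0.05 in the main fit and -0.0039 without both libraries that stood apart. The TNF calls of DUSP4, DUSP5, DUSP6, DUSP8 and DUSP16 held under all 19 alternatives run. DESeq2 called fewer genes, 799 against 1309 for TNF, 259 against 398 for Senexin B, 437 against 713 for both agents against TNF and 485 against 779 for both against Senexin B. The calls it lost among the DUSP genes stand beside those genes. With no filter on low counts the interaction called 10 genes against 6. When each library was left out in turn, genes called ranged from 876 to 1348 for TNF, 236 to 589 for Senexin B, 451 to 815 for both against TNF, 583 to 916 for both against Senexin B and 2 to 9 for the interaction. The lowest counts for Senexin B and for both against TNF came without Senexin B replicate 3 and without TNF plus Senexin B replicate 3. DUSP genes called ranged from 5 to 7, 2 to 4, 2 to 4 and 6 to 7 in the 4 comparisons, and stayed at 0 for the interaction in these fits.

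The labels number the replicates 1 to 3 in every group, but state no shared batch or day. Deviations of the 18 same-numbered pairs correlated at -0.01 to 0.12 (median 0.02), with 1 pair over 0.1. The 36 pairs of unlike number correlated at -0.10 to 0.06 (median -0.01). As the correlations were small and no batch is stated, the main fit did not pair the samples. As a hint of pairing from the data, 10 of 12 libraries correlated best with their own number. With a replicate block the genes called were 1470, 479, 871, 827 and 6 for TNF, Senexin B, both against TNF, both against Senexin B and the interaction. Without it they were 1309, 398, 713, 779 and 6. The DUSP genes called were 7, 3, 3, 7 and 0, and the block changed no DUSP call.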
